A study of Mus musculus with 6 samples.

Results

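Gas5, Snhg5, Snhg16 and Snhg17 are mouse genes whose long non-coding transcripts carry small nucleolar RNAs (snoRNAs) in their introns. They were followed here on polysomes after a block of translation initiation. The members are all probe sets that the array annotation assigns to one of these 4 symbols alone, which gave 9 of the 34760 probe sets in the table: 4 for Gas5, 3 for Snhg17 and 1 each for Snhg5 and Snhg16. The genes were chosen by their log2 differences between treated and control arrays, among them the high value of Snhg16 and the disagreement between the Gas5 probe sets. Their differences are therefore given as a description with a standard error (SE) and with no test.

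The cells were #483, a single clone of mouse T-cell leukaemia (T-ALL) on the strain C57BL6. One group of 3 cultures was left untreated according to the titles, and the other 3 received 100 µM 4EGI-1, an inhibitor that keeps eIF4E, which holds the mRNA cap, from joining its partner eIF4G. The series' design text names DMSO as the control condition and an incubation of 2 h, so it stays unclear if solvent was added to the controls. Polysome fractions of each sucrose gradient were pooled and hybridised to 1 array per sample, and the values are log2 signals that the authors normalised with RMA. Total RNA was not analysed here. A change in a transcript's amount on polysomes therefore cannot be told apart from a change in its total amount. Nor can fewer cells be told apart from less RNA per cell. After normalisation the arrays had similar median signals, so each difference is relative to the signal of the whole array. A change shared by all polysomal RNA would not show.

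A snoRNA host gene is transcribed and spliced like an mRNA gene. Its introns release snoRNAs, which guide chemical modification of ribosomal RNA in the nucleolus, while the spliced exons leave for the cytoplasm. Such hosts often begin with a terminal oligopyrimidine (TOP) tract, a C followed by a run of C and T, as do the mRNAs of ribosomal proteins. The spliced RNA of Gas5 is known to associate with ribosomes, to hold only short reading frames and to be degraded by nonsense-mediated decay, a pathway that needs translation.

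The sequences around the annotated starts are shown because the TOP tract lies at the very beginning of a host transcript. They are RefSeq windows of assembly GRCm38.p6, which held 6 starts for the 4 genes, and each line runs from 50 bases before the start to 50 bases from it onward, so that base 51 is the start. Capitals mark the longest unbroken run of C and T that begins within 20 bases of the start. RefSeq starts were not measured in these cells.
Gas5 start 1, chr1:161034551-161034650, plus strand: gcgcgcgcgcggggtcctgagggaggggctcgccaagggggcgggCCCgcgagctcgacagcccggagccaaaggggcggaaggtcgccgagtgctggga
Gas5 start 2, chr1:161035116-161035215, plus strand: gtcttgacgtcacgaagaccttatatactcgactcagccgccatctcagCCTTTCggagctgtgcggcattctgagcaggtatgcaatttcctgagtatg
Snhg5 start 1, chr9:88522848-88522947, minus strand: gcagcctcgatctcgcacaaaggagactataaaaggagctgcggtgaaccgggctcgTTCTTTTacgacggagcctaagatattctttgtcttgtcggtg
Snhg16 start 1, chr11:116671610-116671709, plus strand: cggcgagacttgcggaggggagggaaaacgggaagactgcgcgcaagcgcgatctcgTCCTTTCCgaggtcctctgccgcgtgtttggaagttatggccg
Snhg17 start 1, chr2:158361460-158361559, minus strand: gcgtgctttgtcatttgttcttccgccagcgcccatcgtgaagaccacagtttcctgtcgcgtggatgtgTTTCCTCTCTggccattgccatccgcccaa
Snhg17 start 2, chr2:158361473-158361572, minus strand: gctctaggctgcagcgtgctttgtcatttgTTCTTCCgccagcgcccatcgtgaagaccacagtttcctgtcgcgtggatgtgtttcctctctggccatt

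At the first Gas5 start the transcript begins with G, and the longest run is of 3 pyrimidines, a length that 94.2% of all windows reach. At the second Gas5 start the transcript begins with C, and a run of 6 pyrimidines begins at position -1. Snhg5 has a run of 7 and Snhg16 a run of 8, both beginning 7 bases after a start that RefSeq places at G. At the first Snhg17 start the transcript begins with T rather than C, in the pyrimidine run TTTCCT. The longest run there, of 10, begins 20 bases after the start. At the second Snhg17 start the transcript begins with G, and the longest run, of 7, begins at position -20. A run at least as long as 6 was found in 39.3% of the 32851 windows of all genes, one of 7 or more in 26.0%, one of 8 or more in 17.2% and one of 10 or more in 7.96%. Runs that begin anywhere within 20 bases of a start are therefore frequent. These shares do not count transcripts that begin with a TOP tract as defined above, whose frequency was not measured. The match describes the sequence only. In the 300-base windows, which reach back 250 bases, the second Gas5 start has the cyclic AMP response element TGACGTCA, which reads the same on both strands, at position -46 counted from the start; 1.79% of all windows hold it. The motif TATAAA, searched on both strands, was found in the Snhg5 window alone, at position -23, and 13.6% of all windows hold it. CACGTG, a binding sequence of Myc that also reads the same on both strands, was in none of the 6 and is in 7.15% of all windows. The motifs were chosen after the sequences had been read.

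The 6 arrays had median log2 signals of 6.38 to 6.43. Their number limits the precision, and the SE of a difference had a median of 0.09. T-cell genes matched the label: all 10 measured markers had a mean signal above the median of the table, with an array median of 11.06 to 11.13 in controls and 10.71 to 10.73 with 4EGI-1. Of the markers of other cells, 0 of 3 B-cell, 1 of 4 myeloid, 0 of 1 erythroid and 3 of 4 stromal and endothelial genes lay above that median. The stromal and endothelial markers ranged from 5.77 to 8.93 in mean signal, and their array median was 6.95 to 7.05 in controls and 6.88 to 6.98 with 4EGI-1. The part of these genes in the results was not tested.

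Snhg16, which carries snoRNAs of the Snord1 family, showed the highest increase of the 4 genes. Its probe set 10382838 gave log2 signals of 7.03, 6.53 and 7.36 in untreated replicates 1, 2 and 3 and of 9.24, 8.98 and 9.03 with 4EGI-1. Every treated array lay at least 1.62 above every control, although the controls themselves were scattered. The means were 6.97 ± 0.42 and 9.08 ± 0.14 (SD, n = 3 each), so the log2 difference was 2.11 ± 0.21 (SE), or 4.32-fold. By size it ranked 12 among the increases of all 34760 probe sets. Untreated replicate 2 was the lowest control and replicate 3 the highest, and leaving out single arrays gave differences from 1.89 to 2.30.

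Snhg5, the host of the Snord50 snoRNAs, was more than doubled in signal with little scatter. Probe set 10595614 read 10.20, 10.36 and 10.17 in the untreated arrays and 11.45, 11.51 and 11.45 in the treated ones. The groups were 1.08 apart at their nearest values. Means were 10.24 ± 0.10 and 11.47 ± 0.03 (SD, n = 3 each), a log2 difference of 1.22 ± 0.07 (SE) and a fold of 2.34.

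Snhg17, which hosts H/ACA-type snoRNAs, gave values that depended on the probe set. The brightest, 10489237, read 7.49, 7.56 and 7.23 in controls and 8.04, 7.83 and 8.18 with 4EGI-1, a log2 difference of 0.59 ± 0.13 (SE). Its treated arrays all lay above its controls, by 0.27 at the nearest values. Probe set 10489235 read 6.44, 6.42 and 6.29 in controls and 6.50, 6.64 and 6.58 with 4EGI-1, so that the groups were only 0.06 apart and the difference was 0.19 ± 0.07. Probe set 10489239 went the other way, with 6.63, 6.67 and 6.67 in controls and 6.46, 6.55 and 6.60 with 4EGI-1, a difference of -0.11 ± 0.06. Here the nearest values were 0.02 apart. Both of these probe sets had mean signals close to the table's median of 6.40, while the brightest lay at the percentile 70.1 of mean signal. The annotation ties the 3 probe sets to 3 cDNA or RefSeq records, with 0 shared by all of them. Probe sets 10489235 and 10489237 list 1 record each and 10489239 lists 2, so the records are not wholly separate. The probe sets need not report the same exons.

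Gas5, the host of the largest set of snoRNAs among the 4, was slightly higher in its brightest probe set and lower in the other 3. Probe set 10351026 read 12.16, 12.23 and 12.17 in controls and 12.41, 12.45 and 12.47 with 4EGI-1. The difference was 0.26 ± 0.06 (SE), a fold of 1.19, and the groups were 0.18 apart. It lies at the percentile 99.1 of mean signal in the table.

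The other Gas5 probe sets were lower on each treated array than on each control. Probe set 10351035 read 7.54, 7.82 and 7.77 in controls and 6.62, 6.37 and 6.39 with 4EGI-1. Its difference of -1.26 ± 0.11 (SE) corresponds to 0.419 times the control signal. For 10351037 the controls read 11.09, 11.12 and 11.05 and the treated arrays 10.22, 10.13 and 10.26. This probe set is bright, at the percentile 92.9, and its difference was -0.88 ± 0.06, or 0.543 times. The controls of 10351039 read 9.51, 9.53 and 9.53 and the treated arrays 8.66, 8.48 and 8.45, a difference of -0.997 ± 0.07, or 0.501 times. The 3 lower probe sets lay at the percentiles 62.3, 81.7 and 92.9 of mean signal, all dimmer than the brightest, and the dimmer the probe set, the lower its difference. The part of signal level in the differences was not tested.

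**Figure D1:**
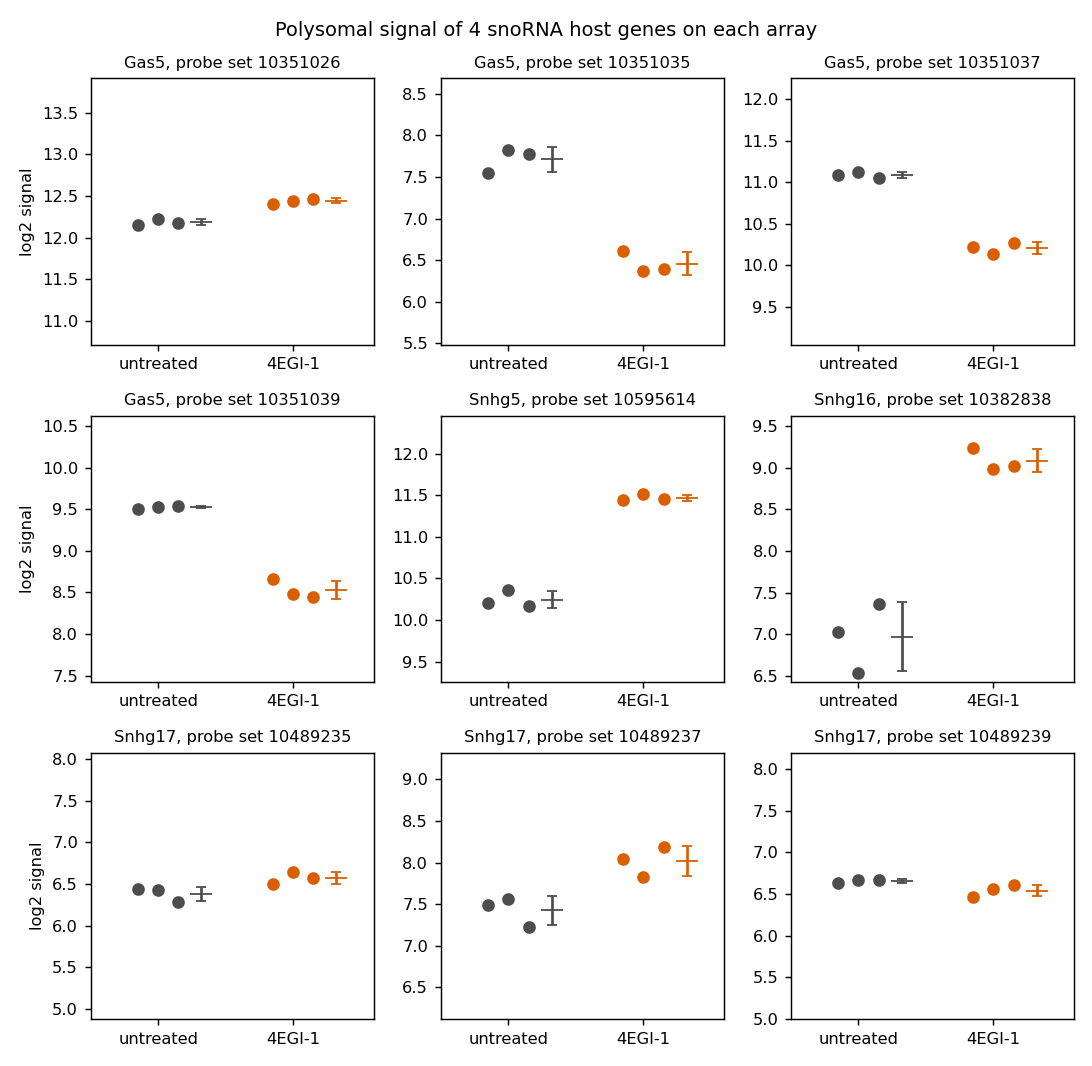
Log2 signal on each array (y axis; every panel spans the same number of log2 units) for the 9 probe sets of the 4 host genes, with untreated arrays in grey and 4EGI-1 arrays in orange; the horizontal mark and bar beside each group are the mean and SD of 3 arrays. Snhg16 moved from 6.97 to 9.08, while Gas5 10351035 moved from 7.71 to 6.46 and Gas5 10351026 from 12.19 to 12.44.

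Across the 9 probe sets, 5 were higher and 4 lower, and the groups did not overlap in any of the 9. Over all probe sets the groups did not overlap in 33.4%, with 15.4% higher and 18.1% lower, and nothing is read from the members' count because this contrast chose them. Snhg5, Snhg16 and the 3 lower Gas5 probe sets lay outside the central 95% of differences of all probe sets, which ran from -0.60 to 0.82. All 3 Snhg17 probe sets and Gas5 10351026 lay inside it. Quantile normalization raised the difference of Gas5 10351026 to 0.32. The other 8 differences moved by less than their SD in every alternative, and none of the 9 changed sign.

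**Figure D2:**
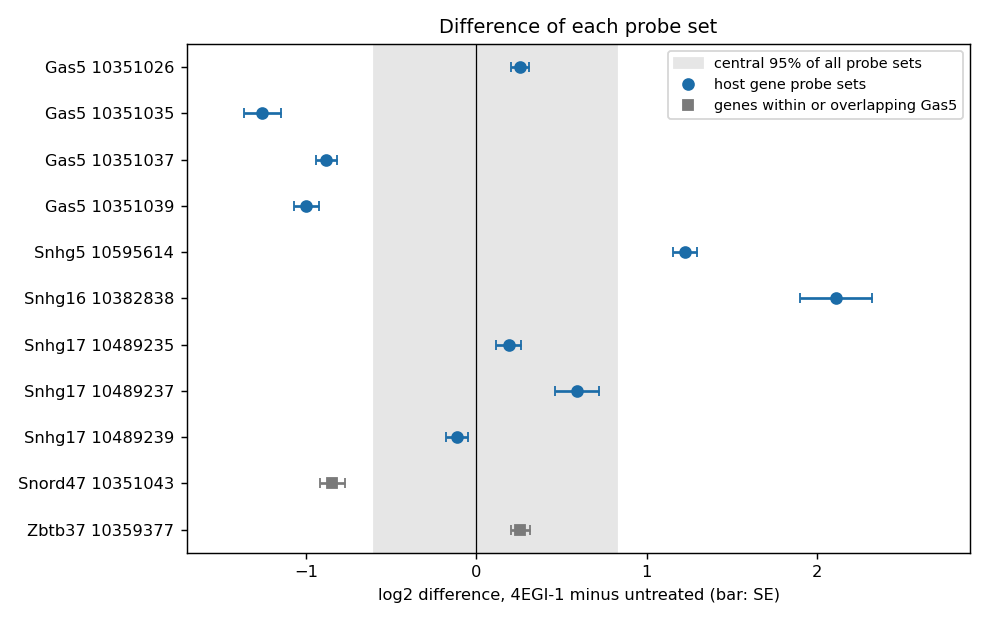
Log2 difference, 4EGI-1 minus untreated (x axis, bars are SE), for each host gene probe set (circles) and for the probe sets of Snord47 and Zbtb37, which lie within or overlap Gas5 (squares); the grey band holds the central 95% of all 34760 probe sets. Snhg16 at 2.11 and Snhg5 at 1.22 lie to the right of the band, and 3 Gas5 probe sets between -1.26 and -0.88 to its left, beside Snord47 at -0.84.

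Because probe sets of one gene are read on the same array, their gap can be compared array by array. The gap between Gas5 10351026 and 10351035 was 4.40 to 4.61 in controls and 5.79 to 6.08 with 4EGI-1. For 10351037 it was 1.07 to 1.12 and then 2.19 to 2.31, and for 10351039 it was 2.64 to 2.69 and then 3.75 to 4.02. Each gap was wider on all 3 treated arrays, by 1.14 to 1.51 on average. The level of a gap depends on the probes, and its shift restates by array the differences given above, by whose disagreement Gas5 was chosen, so it is a description only. For Snhg17 the mean gap of 10489237 to 10489235 went from 1.04 ± 0.10 to 1.44 ± 0.23 (SD, n = 3 each), and that to 10489239 from 0.77 ± 0.18 to 1.48 ± 0.18.

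**Figure D3:**
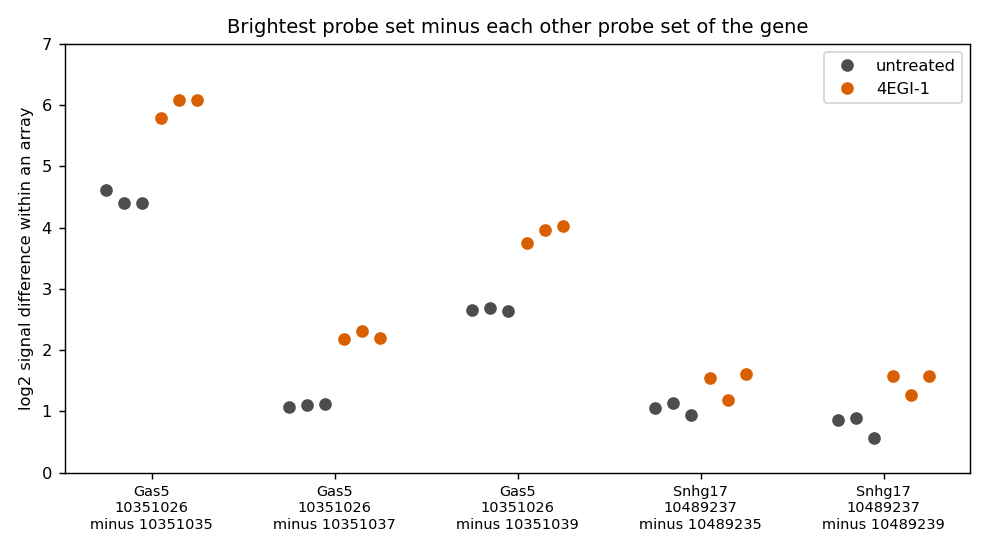
Gap in log2 signal on one array between the brightest probe set of Gas5 or Snhg17 and each other probe set of that gene (y axis), for 3 untreated (grey) and 3 4EGI-1 arrays (orange). The 3 Gas5 gaps widened by 1.14 to 1.51, with each treated array above each control.

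The disagreement was set beside that of all 954 genes with several probe sets, as a description. The distance between the highest and the lowest log2 difference was 1.51 for Gas5, against a median of 0.14 over these genes, and 0.26 over the 30 with 4 probe sets. Gas5 ranked 5, behind Cbx3 (1.97), Wnk1 (1.77), Tax1bp3 (1.58) and Ccdc180 (1.55). Snhg17, with 0.70, was reached or passed by 4.72% of these genes. Among the 12 widest were also Taf1d (1.25 over 6 probe sets) and Rpl27a (1.18 over 9), which host snoRNAs too and were picked out after their values were seen. Averaging a gene's probe sets turned the sign of Gas5, to -0.72 ± 0.06 (SE), and brought Snhg17 to 0.22 ± 0.07. All 4 Gas5 probe sets share 1 RefSeq transcript record in the annotation, and 10351026 lists 3 further ones.

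RefSeq places 8 snoRNA genes inside Gas5, 3 inside Snhg16 and 2 each inside Snhg5 and Snhg17. Of the 17 intronic snoRNAs listed for these hosts, 1 had a probe set of its own name alone, Snord47 of Gas5, a C/D-box snoRNA, and it fell. It read 9.56, 9.56 and 9.55 in controls and 8.83, 8.70 and 8.60 with 4EGI-1. Its treated arrays all lay below its controls, with a log2 difference of -0.84 ± 0.08 (SE; limma adjusted p = 0.00209). The adjusted p stayed between 0.000149 and 0.0245 in the 16 alternatives. In size and direction this value lies near those of the 3 lower Gas5 probe sets and away from that of the brightest. Whether any of those 3 probe sets reads snoRNA or intron sequence was not tested, since probe positions were not used here.

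Zbtb37, a zinc finger gene whose RefSeq span overlaps the upstream end of Gas5, read 8.52, 8.49 and 8.47 in controls and 8.81, 8.73 and 8.71 with 4EGI-1. Its difference of 0.26 ± 0.06 (SE; limma adjusted p = 0.0323) is that of the brightest Gas5 probe set to the second decimal, and its adjusted p was above the threshold without any single one of the 6 arrays (up to 0.109 over all alternatives). Overlapping transcripts are not separated by the values, and strand was not compared.

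Among all 55 probe sets that RefSeq types as snoRNA genes, 9 fell, 0 rose and 46 did not pass in limma, against 6.99% lower and 7.95% higher over all probe sets. At an unadjusted p under 0.05, 18 of the 55 were lower and 3 higher, against 4921 lower and 4659 higher of all 34760 probe sets. The median log2 difference was -0.20, against -0.02 for all probe sets, and the values ran from -1.07 to 1.00. The highest was that of Snord61, which did not pass and lay at the percentile 7.24 of mean signal. Snord52 (-0.97 ± 0.15, SE) and Snord33 (-0.68 ± 0.07) were among the 9 and, with Snord47 and Snora73b (-0.60 ± 0.07), passed in every alternative that tested them. The other 5 did not. The count that fell was 4 with the replicate block and 5 without untreated replicate 3, where 1 rose. Snord14e missed the threshold only with the replicate block, whereas Snora21, Snora41, Snora7a and Snord104 missed it with that block, without untreated replicate 2 and without untreated replicate 3. These probe sets share the array and the amplification with those of their hosts. Snora21 fell in probe set 10390505 (-0.77 ± 0.17, SE), while its probe set 10564520 differed by only 0.009 ± 0.13.

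In 26 pairs a snoRNA with its own probe set lay inside exactly 1 gene, measured too. The gene was read by its brightest probe set, whose position relative to the snoRNA was not compared. Some of these genes have several probe sets that differ, such as Rpl23a with 10. Ncl, Rps3, Rpl23a and Rian each enter more than 1 pair, so the pairs are not independent. The snoRNA's difference was below that of the gene in 18 of the 26, with a median gap of -0.09. These gaps ran from -0.86 (Snord14e in Hspa8) to 0.82 (Snord61 in Rbmx). The upper end is imprecise, because Snord61 was dim, with controls of 3.01, 2.34 and 3.77 and a difference of 1.00 ± 0.36 (SE). After Snord14e, the lowest gap was that of Snord57 (-0.47 ± 0.14, SE) within Nop56 (0.30 ± 0.06), which encodes a protein of C/D-box snoRNPs. Snord57 did not pass in limma (adjusted p = 0.0776). For Snord47 the gap depended on the Gas5 probe set: it was -1.10 to the brightest, below that range, and 0.41 to 10351035, 0.04 to 10351037 and 0.15 to 10351039, all within it. Against the mean of the 4 Gas5 probe sets it was -0.13. Snord47 is not among the 26, and its gaps were not tested.

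**Figure D4:**
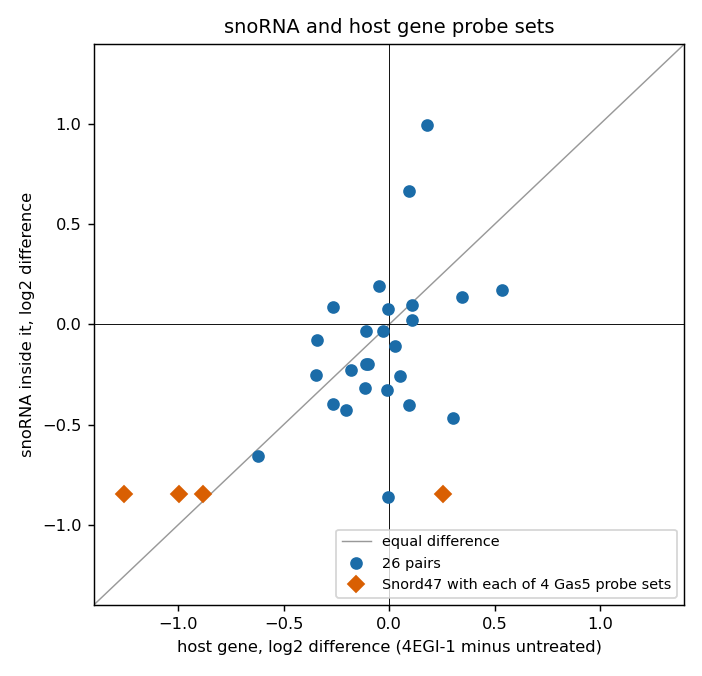
Log2 difference (4EGI-1 minus untreated) of a snoRNA probe set (y axis) against that of the gene around it, by its brightest probe set (x axis), for 26 pairs (blue). Orange diamonds show Snord47 with each of the 4 Gas5 probe sets, and the grey line marks equal differences. With Snord47 at -0.84, the diamond of Gas5 10351026 at 0.26 lies below the line and those at -0.88, -0.997 and -1.26 lie above it.

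Few other non-coding snoRNA hosts could be read, and their differences were small. Of 19 listed, 4 had a probe set of their symbol alone: Snhg11, Snhg15, Dancr and Rian. In limma 0 rose and 0 fell, against 9.09% higher and 8.31% lower over 19937 genes by their brightest probe set. Of the 4, 0 had an unadjusted p under 0.05, against 2859 higher and 3151 lower of the 19937 genes. Snhg15 read a mean of 6.89 ± 0.17 and 6.68 ± 0.15 (SD, n = 3 each), a difference of -0.21 ± 0.12 (SE; adjusted p = 0.328). Dancr differed by -0.10 ± 0.08, Rian by 0.11 ± 0.10 and Snhg11 by -0.01 ± 0.08. Their control means ran from 4.67 to 6.89, and Snhg15 alone of the 4 had a mean signal above the median of the table.

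Most protein-coding genes that host snoRNAs did not pass the test. Of 54 listed, 45 were measured: 6 rose, 4 fell and the other 35 missed the threshold, against 9.09% higher and 8.31% lower over all genes, with a median of -0.04 against -0.03. These counts lie near the background. The splicing factor gene Sf3b3 rose by 0.75 ± 0.06 (SE; adjusted p = 0.00178), Cwf19l1 by 0.68 ± 0.08 (0.00393) and the elongation factor gene Eef2 by 0.53 ± 0.06 (0.00366), and these 3 passed in every alternative. The 4 that fell were among the 17 ribosomal protein genes measured as hosts, of which the other 13 missed the threshold: Rps20 by 0.28 ± 0.06 (adjusted p = 0.0316), Rps13 by 0.22 ± 0.05 (0.0445), Rps12 by 0.34 ± 0.08 (0.0448) and Rpl23a by 0.27 ± 0.07 (0.0490). None of these 4 passed without untreated replicate 1, 2 or 3 or without 4EGI-1 replicate 1 or 3, where 0 were lower and 3 higher; without 4EGI-1 replicate 2 the counts were 2 and 4. Centring the arrays on their medians left 1 lower. Over the 10 probe sets of Rpl23a the differences ran from -0.32 to 0.21, and their average did not pass. All probe sets of Rps12 (-0.51 to -0.25) and Rps13 (-0.64 to -0.22) were lower.

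The proteins that snoRNAs work with were also read. Of 8 snoRNP core protein genes, 2 fell, 1 rose and the other 5 missed the threshold, against 8.31% lower and 9.09% higher over all genes, with a median of -0.15 against -0.03. Nop10 and Nhp2, both of the H/ACA particle that makes pseudouridine, fell by 0.72 ± 0.06 (SE; adjusted p = 0.00204) and 0.57 ± 0.06 (0.00372), in every alternative. Nop56, of the C/D particle that guides methylation, rose by 0.30 ± 0.06 (adjusted p = 0.0212), a call that ended when any 1 of the 6 arrays was left out. The methyltransferase gene Fbl differed by -0.09 ± 0.07 and the pseudouridine synthase gene Dkc1 by -0.07 ± 0.07 (adjusted p = 0.507 and 0.581).

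Factors of nonsense-mediated decay, which degrades spliced Gas5, were higher or missed the threshold. Of 10 listed, 7 were measured. Of these, 4 rose, 0 fell and the other 3 missed the threshold, against 9.09% higher and 8.31% lower over all genes. Their median was 0.41, against -0.03. At an unadjusted p under 0.05, 6 of the 7 were higher and 0 lower, against 2859 higher and 3151 lower of all 19937 genes. Upf2 rose by 0.61 ± 0.08 (SE; adjusted p = 0.00559) and the endonuclease gene Smg6 by 0.57 ± 0.07 (0.00428), both in every alternative. Smg9 and the helicase gene Upf1 were the others, at 0.46 ± 0.07 (0.00970) and 0.41 ± 0.08 (0.0208). Upf1 did not pass without untreated replicate 1, 2 or 3 or without 4EGI-1 replicate 1 or 3, where 3 were higher. These are polysomal RNA levels and not a measure of decay.

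**Figure D5:**
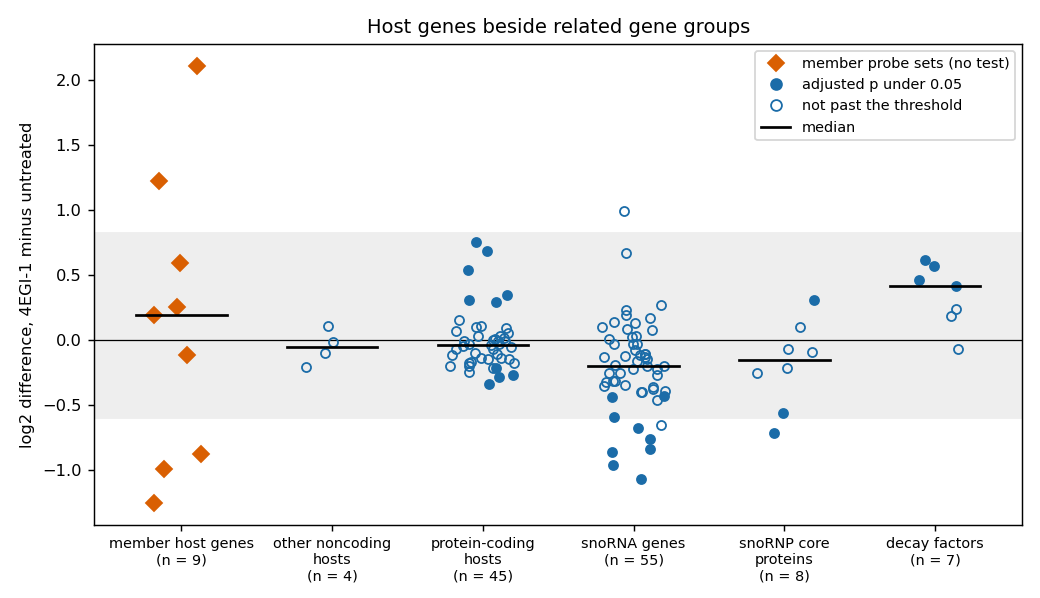
Log2 difference, 4EGI-1 minus untreated (y axis), for the 9 member probe sets (orange diamonds, no test), for genes of 4 related groups by their brightest probe set, and for 55 snoRNA probe sets; filled circles passed limma at an adjusted p under 0.05, black lines are medians and the grey band holds the central 95% of all probe sets. The member probe sets run from -1.26 to 2.11, the protein-coding hosts from -0.34 to 0.75 and the snoRNA probe sets from -1.07 to 1.00.

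The named genes most like each member were found by the root mean square difference over the 6 arrays, after centring each probe set on its control mean. Nearest to Snhg16 were Lrrd1, the arrestin-domain gene Arrdc3 and Zc3h6, at 0.19, 0.20 and 0.28. Nearest to Snhg5 was Heatr1, a nucleolar protein gene of ribosome assembly, at 0.03, followed by Arl9 and the chemokine gene Ccl25 at 0.06 and 0.07. The brightest Gas5 probe set was closest to the transcription factor gene Foxn3, Cspg5 and the actin-binding Svil, at 0.02 each. Its probe set 10351035 was closest to Cks2, a cyclin-dependent kinase subunit, Tmem229b and the surface antigen gene Cd52, at 0.10 to 0.11. For 10351037 they were Scap, which escorts the sterol-regulated factor SREBP, Polr3g, of RNA polymerase III, and Eef1akmt1, at 0.04 to 0.05. For 10351039 they were the mitochondrial pyrophosphatase gene Ppa2, Fnta, of the farnesyltransferase, and the ubiquitin ligase gene Rnf145, at 0.03 to 0.05. The brightest Snhg17 probe set was nearest to Olfr195, Gipc2 and Tmem140, at 0.07 to 0.08. Probe set 10489235 was nearest to Pex5l, Kansl1 and Zfp777, at 0.03 to 0.04, and 10489239 to Eppk1, Bach1 and Pitpnm3, at 0.01 to 0.02. Small changes find close matches more easily than large ones, so these distances are not comparable between members.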

How the data were processed

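Per the submitters' processing notes, the authors made the deposited log2 values with RMA; version and other settings: not given in the sources used here. Of 34760 probe sets, the platform annotation lists 21640 with 1 symbol, 1321 with several, which named no gene, and 11799 not at all. Symbols were updated by Entrez identifier (21553 matched) through a RefSeq table of GRCm38.p6, also used for which genes overlap. Differences were fitted on every probe set with lmFit and eBayes (limma 3.58.1, R 4.3.3), two-sided, without filter or block, with Benjamini-Hochberg adjusted p under 0.05. Lists were counted by each gene's brightest probe set. The scripts were tested on simulated data.

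Members, lists and tests were chosen with earlier results of these data known, so no list is independent evidence. Genes named were all members, list members that passed and the 3 most alike genes per member probe set, without predicted or unnamed genes. Those that passed were limited to the 3 smallest adjusted p per direction for protein-coding hosts. For snoRNP proteins and decay factors the limit was 2 per direction. Rpl23a, Smg9, Upf1, Taf1d, Rpl27a, overlapping genes, genes that did not pass and other snoRNAs were added after their values were seen. The design text calls the cultures biological replicates.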

Additional observations from a re-analysis of the deposited data

How the results depend on the processing

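The number of arrays limits the precision, and no detection call was used, so dim probe sets such as those of Snhg17 near the median signal may carry little signal over background. The replicate number as a block was a fit without pairing: same-numbered arrays deviated with correlations of -0.01, 0.03 and -0.02. With this replicate block 1685 probe sets were higher and 1060 lower, against 2763 and 2429 without it; protein-coding hosts gave 3 and 0, and snoRNP core proteins 0 higher. With an adjusted p under 0.01 the table gave 1324 and 824, protein-coding hosts 3 and 0, and snoRNP proteins 0 higher. Protein-coding hosts lower numbered 2 after quantile normalization, 1 after median centring, 9 among probe sets at or above the median signal, 7 when a gene's probe sets were averaged and 10 with a trended robust prior; snoRNP proteins lower numbered 4 above the median signal. Quantile normalization put Gas5 10351026 at 0.32. With averaged probe sets Gas5 was reversed at -0.72 and Snhg17 moved to 0.22. Leaving out 1 array at a time gave 1835 to 2134 higher and 1265 to 1495 lower probe sets, 3 to 4 and 0 to 2 protein-coding hosts, and 0 to 0 snoRNP proteins higher. The leave-one-out, filter and threshold settings use fewer arrays, fewer probe sets or a stricter threshold; the cause of the other changes was not tested. The snoRNA probe sets, whose alternatives were added after seeing the data, numbered 4 lower with the replicate block, 5 lower at an adjusted p under 0.01, 14 lower and 1 higher with the brightest probe set per gene, and 15 lower and 1 higher with averaged probe sets. Quantile normalization and the 25th percentile filter also gave 1 higher, and leaving out 1 array at a time gave 5 to 9 lower and 0 to 1 higher. Every other count and difference listed for these alternatives stayed within 1.5 times or its SD.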
